A study of Mus musculus with 2 samples.

Results

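The subepithelial myofibroblasts (SEMFs) of the mouse small intestine were described here as the cells that the deposited label table of that library calls PDGFRahi SEMFs. The label was given to 1109 of the 9359 labelled cells of the small intestinal library (11.8%, exact 95% binomial interval 11.2 to 12.5), which were 18.97% of its 5845 fibroblasts, and the whole series holds 15377 cells in 2 libraries. Both libraries, 1 of small intestine and 1 of colon, came from healthy, untreated mice, and held live cells sorted without EpCAM and without CD45, so that epithelial and immune cells had been removed. The strain, sex, age and number of the animals are not given in the labels, and no allele or agent is named for either group. The other small intestinal labels were CD81- FBs (2823 cells), CD81+ Trophocytes (1913), LECs or lymphatic endothelial cells (2498), BECs or blood endothelial cells (524), SMCs or smooth muscle cells (468) and 24 proliferating cells, which were too few to compare. How the authors assigned the labels is not stated, so a gene that separates 2 labels may have been used to draw them, and all differences between labels are given as descriptions.

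Fibroblasts with high PDGFRA, the alpha receptor for platelet-derived growth factor, lie against the gut epithelium, where they are known as a source of bone morphogenetic proteins (BMPs) and of non-canonical WNT ligands. BMPs hold epithelial cells in a differentiated state. Trophocytes, CD81-positive fibroblasts deeper in the wall, are known for the opposite supply, with the BMP antagonist Gremlin 1 and R-spondins around the crypt.

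The SEMFs gave 6522861 UMIs in all, a UMI being 1 captured RNA molecule, with a median of 5510 UMIs per cell (837 to 19552) and 2653 genes per cell. The medians of the other types lay between 3651.5 UMIs per cell in BECs and 7807 in trophocytes. Levels are UMIs summed over the cells of a label and given as counts per 1000000 UMIs of that label (CPM), and the intervals in brackets are exact 95% intervals that cover counting error only. Each tissue had 1 library, so no level has a replicate check and no p-value is given. The 2 libraries shared 21 cell barcodes. All 8 blood endothelial markers were under 10 CPM in SEMFs, and of the lymphatic markers Prox1 was at 2.15, Mmrn1 at 11.8 and Ccl21a at 25.3 CPM, where LECs had 804, 4776 and 7839. Of 12 epithelial markers 10 were under 10 CPM, but 7 were higher in SEMFs than in any other type. The list summed to 40.6 CPM against 4.99 to 32.4 in the others. Much of this sum came from single cells: 1 cell held 92 of the 99 UMIs of Reg3b, 1 held 62 of the 67 of Reg3g and 1 held all 10 of Apoa1. Of 10 immune markers 6 were highest in SEMFs, and the list summed to 463 CPM against 70.9 to 178. All 3 that had enough UMIs to compare were at least 2-fold higher than in the other fibroblasts. Of all 12034 genes compared with the other fibroblasts, 34.6% were highest in SEMFs and 9.07% at least 2-fold higher. The counts of 7 epithelial and 6 immune markers include members with few UMIs. Cd3e and Tyrobp had no UMI and Ptprc, which encodes CD45, was at 0.767 CPM. Igkc was at 356 CPM and Jchain at 61.2, and they were at 47.7 and 10.1 CPM without the 2 cells with the most of each. Lyz2, for lysozyme, was at 36.5 CPM against at most 4.07 elsewhere, and its 238 UMIs were spread over 196 SEMFs. The part of RNA from such cells in the results was not tested. Pdpn, which fibroblasts also express, was at 343 CPM, and of the markers of interstitial cells of Cajal Etv1 was at 417 CPM while Kit and Ano1 were at 3.22 and 0.307 CPM.

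The 6 markers supplied with the label were Pdgfra, the transcription factor gene Sox6, the ligand gene Bmp5, the complement gene C7, the chemokine gene Ccl11 and Abcc9, which encodes the regulatory subunit of an ATP-sensitive potassium channel. Pdgfra was at 2778 CPM in SEMFs, 341 in CD81- FBs, 376 in trophocytes, 125 in SMCs, 20.3 in LECs and 7.75 in BECs. Sox6 was at 3519 CPM in SEMFs, while the other 5 types ranged from 8.98 to 26.9 CPM. Bmp5 was at 1539 CPM in SEMFs, 249 in SMCs, 188 in CD81- FBs and at most 10.9 in the remaining types. Abcc9 was at 585 CPM in SEMFs, 32.7 in LECs and at most 10.3 elsewhere. These 4 genes set SEMFs apart from every other type by more than 6-fold, and the intervals of SEMFs and of the next type did not overlap. C7 was less particular, at 1033 CPM in SEMFs against 577 in trophocytes and 353 in CD81- FBs. Ccl11, which encodes the eosinophil attractant eotaxin, was at 1510 CPM in SEMFs and higher in SMCs, at 2244 CPM, so it did not mark the label by itself. CD81- FBs had 1115 CPM of Ccl11 and trophocytes 260 CPM. The other 5 of the 6 markers had their highest level in SEMFs.

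Single cells were compared after each cell had been thinned to 3000 UMIs, which left 1002 SEMFs and set aside 107 that were too shallow. Pdgfra was then detected in 99.6% of SEMFs, Sox6 in 99.0%, Bmp5 in 96.0%, Abcc9 in 76.2%, C7 in 69.2% and Ccl11 in 63.3%. Without thinning these shares were 99.6%, 99.0%, 98.4%, 90.2%, 76.6% and 66.6%. LECs served as the background for all but Abcc9. They had a median of 4117.5 UMIs per cell before thinning, with 1946 cells deep enough and 552 set aside. In them the thinned shares were 2.16% for Pdgfra, 1.54% for Sox6, 1.44% for Bmp5, 1.03% for C7 and 3.13% for Ccl11. Abcc9 was found in 8.12% of LECs, the type with its next highest level. BECs gave its background, at 0.587% (median 3651.5 UMIs, 341 cells deep enough and 183 set aside). Sox6 was found more often in BECs and SMCs than in LECs, at 5.28% and 3.50%. The part of free RNA in these shares was not tested. All 6 markers were found together in 34.1% of SEMFs (31.2 to 37.2) and at least 4 in 93.6%, against 0.103% and 0.514% of LECs. C7 and Ccl11 were not always found together: 462 of the thinned SEMFs had both, 231 had C7 without Ccl11, 172 had Ccl11 without C7 and 137 had neither. Ccl11 was found in 66.7% of the thinned SEMFs with C7 and in 55.7% of those without it. Pdgfra, Sox6 and Bmp5 thus marked nearly every cell of the label, while C7 and Ccl11 were each missed in many cells.

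Against each of the other 5 types, 288 of 8740 genes compared (3.3%) were at least 2-fold higher in SEMFs and 97 (1.11%) at least 2-fold lower. Genes were ranked by the level in SEMFs over that in the next highest type, after adding 10 CPM to both. Type by type, SEMFs were at least 2-fold higher in 6.98% and lower in 8.53% of the genes compared with CD81- FBs, 14.9% and 9.45% with trophocytes, 9.1% and 6.84% with SMCs, 17.2% and 13.9% with LECs, and 23.6% and 12.9% with BECs. Sox6 led, followed by Sv2b, which encodes a vesicle protein (340 CPM against 3.03 in the next type), Tmem158 (892 against 24.2), Bmp3 (255 against 2.33), the secreted Tafa2 (276 against 3.39) and Bmp7 (307 against 5.90). Alcam, which encodes a cell adhesion protein, was at 576 CPM against 22.9, and Rerg, for a RAS-like GTPase, at 576 against 27.4. Rbp4, for the plasma retinol carrier, was at 428 CPM against 22.2, Kcnq5, for a voltage-gated potassium channel, at 484 against 27.8, and Ednra, for the endothelin receptor type A, at 943 against 68.8. The matrix genes Fbn2 (287 against 17.4), Col24a1 (205 against 13.8) and Col4a6 (220 against 16.9) were among the 20, as were the ligand genes Nrg2 (150 against 5.35) and Il34 (266 against 22.97), the iron reductase gene Cybrd1 (282 against 18.95), Thsd7b, Abcc9 and Gm45025. On the log2 scale of the ranking Gm45025 was the last inside at 3.01, and Bean1 at 2.88, Map2 at 2.87 and Pdgfra at 2.85 followed outside.

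**Figure D1:**
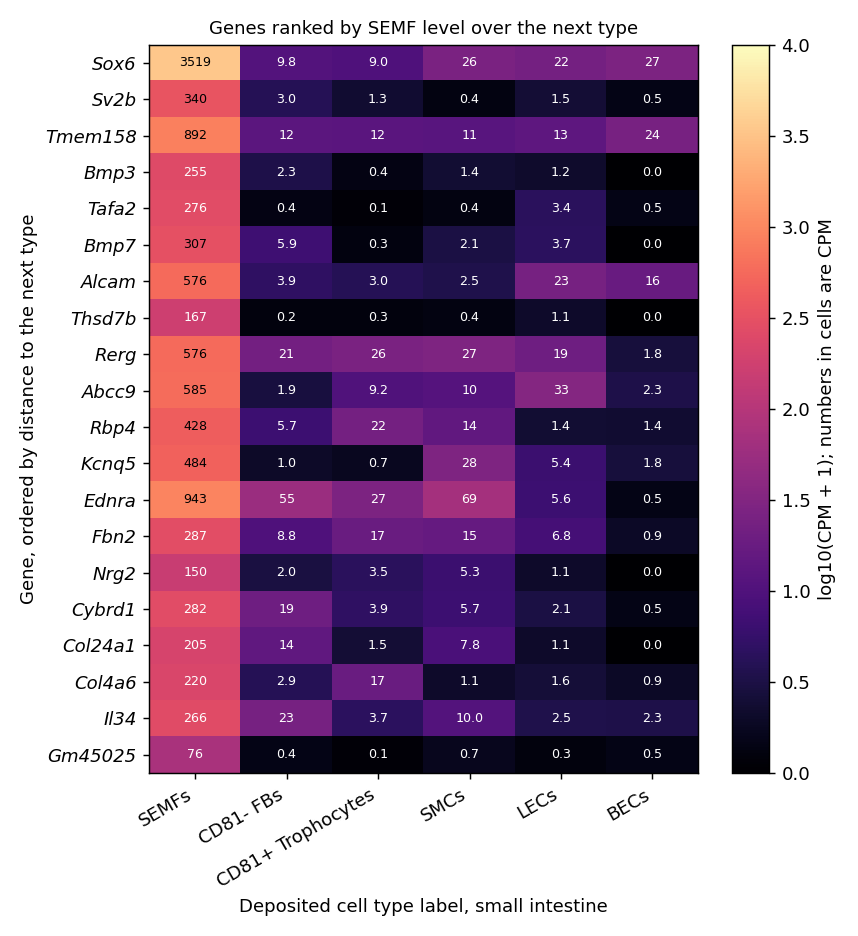
Levels of the 20 genes ranked highest in SEMFs over the next type, in the 6 small intestinal labels compared. The colour gives log10(CPM + 1) and the number in each cell gives CPM, and the SEMF column runs from 76.2 CPM for Gm45025 to 3519 CPM for Sox6 while no other type passes 68.8 CPM.

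The CD81- FBs and trophocytes, pooled as the other fibroblasts, were the reference for gene lists. Of 12034 genes compared, 1091 (9.07%) were at least 2-fold higher in SEMFs and 1190 (9.89%) at least 2-fold lower, and the median log2 ratio over all of them was 0.26. Of the 310 list genes among them, 72 were at least 2-fold higher and 112 at least 2-fold lower. These counts and medians describe the lists, which were chosen with results of these data known, and no list was tested.

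Among the 8 genes for BMP ligands, 3 were at least 2-fold higher in SEMFs and 1 lower, with a median log2 ratio of 0.70. Bmp5, Bmp3 and Bmp7 made the difference, at log2 ratios of 3.82 (3.76 to 3.87), 7.41 (7.01 to 7.83) and 6.44 (6.18 to 6.72) over the other fibroblasts. Bmp2, Bmp4 and Bmp6 were shared with CD81- FBs: Bmp4 was at 525 CPM in SEMFs and 441 in CD81- FBs, Bmp6 at 246 and 194, and Bmp2 at 144 and 167. Gdf10 had no UMI in SEMFs and 25.0 CPM in trophocytes. Of 9 genes for secreted BMP antagonists 4 were at least 2-fold lower, 1 was higher and 4 lay between. Grem1, for Gremlin 1, was at 8.89 CPM in SEMFs against 168 in CD81- FBs and 1298 in trophocytes, while Chrd, for Chordin, was highest in SEMFs, at 141 CPM against 40.5 in trophocytes and 24.0 in CD81- FBs. Of 13 BMP receptor and response genes, 8 were within 2-fold of the other fibroblasts, 4 were lower and 1 was higher, with a median log2 ratio of -0.0042. Id1, a direct target of BMP signalling, was the 1 that was higher, at 90.6 CPM against 6.55 in CD81- FBs and 3.39 in trophocytes. Its highest level of the 6 types was in BECs. The decoy receptor gene Bambi was among the lower ones, at 3.07 against 14.7 and 41.9 CPM.

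Of 6 WNT ligand genes compared, 2 were at least 2-fold higher in SEMFs and 3 lower. Wnt5a, for a non-canonical ligand, was at 209 CPM against 33.4 in trophocytes and 23.5 in CD81- FBs, a log2 ratio of 2.92 (2.80 to 3.04) over both. Wnt4 was at 113 CPM against 34.1 in CD81- FBs and 0.932 in trophocytes. Wnt2b, for a canonical ligand, was lower in SEMFs, at 2.30 CPM against 18.3 and 17.2. The 3 R-spondins compared, which raise WNT signalling in stem cells, were lower: Rspo1 was at 0.307 CPM, Rspo2 at 0.920 and Rspo3 at 16.1, where trophocytes had 11.8, 140 and 138 CPM and LECs had the most Rspo3 at 281 CPM. Lgr5 had no UMI in any of the 1109 SEMFs, which allows a level of up to 0.460 CPM. Of 6 secreted WNT inhibitors 4 were lower and 1 was higher. Wif1 was nearly absent outside SEMFs, at 57.8 CPM against at most 0.865 in the other types, whereas Sfrp1 was at 68.8 CPM against 1482 in CD81- FBs and 999 in trophocytes, and Dkk2 at 13.2 against 198 and 248.

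Of 13 genes of the TGF-beta list 3 were at least 2-fold higher and 3 lower. Inhba and Inhbb, which encode the beta subunits of activins, were at 64.1 and 105 CPM in SEMFs against at most 23.2 and 36.5 in any other type, and Ltbp2, for a latent TGF-beta binding protein, was at 84.5 CPM against at most 4.56. Fgf9 was at 115 CPM against 10.8 in trophocytes and 0.695 in CD81- FBs, while Fgf7 and Fgf10, for epithelial growth factors, were at 0.767 and 4.60 CPM in SEMFs against 53.7 CPM of Fgf7 in trophocytes and 110 CPM of Fgf10 in CD81- FBs. Of the 8 FGF ligand and receptor genes compared, 1 was at least 2-fold higher and 4 lower. The EGF family had no member at least 2-fold higher among 5 compared. Ereg was at 196 CPM in SEMFs against 429 in CD81- FBs, and Nrg1 was at 66.4 CPM, close to the 65.6 CPM of CD81- FBs. In the hedgehog list 2 of 14 genes were at least 2-fold higher and 6 lower: the forkhead genes Foxf2 (140 CPM against 57.9 in CD81- FBs and 8.45 in trophocytes) and Foxl1 (14.3 against 3.92 and 0.0665) were higher. Foxl1, a known marker of cells beneath the epithelium, rested on 93 UMIs in all SEMFs together.

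**Figure D2:**
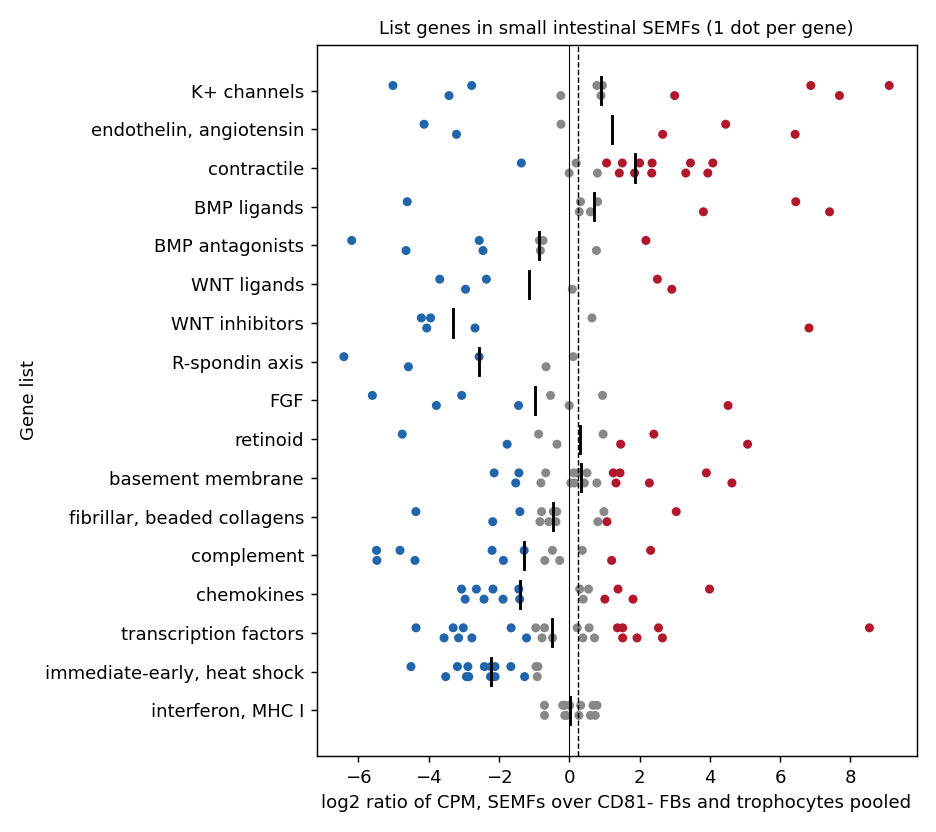
Log2 ratio of the level in SEMFs over the pooled CD81- FBs and trophocytes for the members of 17 gene lists, 1 dot per gene with at least 100 UMIs in both groups together. Red dots are at least 2-fold higher, blue dots at least 2-fold lower, black bars are list medians and the dashed line is the median of all 12034 genes compared (0.26), and the contractile list is shifted to the right and the immediate-early and heat shock list to the left.

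Potassium channel genes were described next. Of 11 potassium channel genes compared, 4 were at least 2-fold higher in SEMFs and 3 lower. Kcnq5 had a log2 ratio of 9.10 (8.59 to 9.66) over the other fibroblasts, Kcnj8 7.69 (7.34 to 8.06) and Abcc9 6.87. Kcnj8 encodes the pore of the ATP-sensitive potassium channel that Abcc9 regulates, and it was at 392 CPM in SEMFs, 99.6 in LECs and at most 10.3 elsewhere. Both subunits thus had their highest level in SEMFs, and both are textbook markers of pericytes, the mural cells of small vessels. The pericyte markers Cspg4 and Pdgfrb were also highest in SEMFs, at 106 and 124 CPM, with CD81- FBs at 41.1 and 95.6 CPM. Notch3, Higd1b, Cox4i2, Vtn and Ndufa4l2 lay between 0.307 and 2.15 CPM in SEMFs, Mcam was at 4.29 CPM, and Rgs5, at 157 CPM, was below CD81- FBs (778) and SMCs (1188). Of 7 pericyte markers compared, 3 were at least 2-fold higher than in the other fibroblasts and 2 lower. The summed level of the 12 pericyte markers reached 1396 CPM in SEMFs, where the other types ranged from 153 to 1583 CPM. Kcnma1, for the large-conductance channel of smooth muscle, was at 2.76 CPM in SEMFs and 603 CPM in SMCs.

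Abcc9 and Kcnj8 are neighbours on mouse chromosome 6 in the reference build GRCm38.p6, on the same strand, with 16247 bases and no annotated gene between them. Kcnj8 spans 142564837 to 142571614 and Abcc9 spans 142587862 to 142702766. The 250 bases before Kcnj8, from the RefSeq promoter table, are shown because they lie between the 2 genes. The start that the table lists for Abcc9 lies inside the annotated span of that gene, so its window is not shown. Capitals mark CG dinucleotides, the sites of DNA methylation, of which there are 6, with a median of 6 over the 32851 windows of the table.
Kcnj8, chr6:142571615-142571864, minus strand: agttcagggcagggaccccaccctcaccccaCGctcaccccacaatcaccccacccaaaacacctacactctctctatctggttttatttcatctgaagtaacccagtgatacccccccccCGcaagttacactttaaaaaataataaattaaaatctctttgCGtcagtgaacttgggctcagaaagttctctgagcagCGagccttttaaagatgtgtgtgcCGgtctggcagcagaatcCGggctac
The core motif of SOX proteins, searched as AACAAT on both strands, was not in this window and was in 9.42% of all windows of this length.

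Both endothelin receptor genes were higher in SEMFs. Of 6 endothelin and angiotensin genes compared, 3 were at least 2-fold higher in SEMFs and 2 lower. Ednra was at 943 CPM against 55.1 in CD81- FBs and 27.2 in trophocytes, a log2 ratio of 4.45 (4.37 to 4.53). Ednrb, for the type B receptor, was at 669 CPM against 11.9 and 2.33. SEMFs also had the most Edn3, for an endothelin ligand, at 33.0 CPM against at most 7.98, whereas Edn1 was at 0.153 CPM and belonged to BECs at 300.1 CPM. The angiotensin receptor gene Agtr1a was lower, at 4.14 CPM against 82.1 in CD81- FBs. Of 11 genes for nitric oxide and cyclic GMP signalling 3 were at least 2-fold higher and 2 lower. Their median log2 ratio was 0.31, near the 0.26 of all genes compared. The higher ones were Gucy1a2, Gucy1b1 and the phosphodiesterase gene Pde1a, at 134, 319 and 927 CPM.

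Of 15 contractile genes compared, 11 were at least 2-fold higher in SEMFs than in the other fibroblasts and 1 was lower, with a median log2 ratio of 1.86. Tagln was at 2605 CPM in SEMFs, 253 in CD81- FBs, 21.2 in trophocytes and 5616 in SMCs. Acta2, for smooth muscle actin, was at 2017 CPM against 341, 17.6 and 6336 in the same order, and Myh11, for smooth muscle myosin, at 245 against 26.7, 1.53 and 1554. Cald1, for caldesmon, was highest in SEMFs, at 1605 CPM against 833 in SMCs, and Actn1 was at 307 CPM, where the interval overlapped that of BECs (281 CPM). Other smooth muscle genes did not follow: Cnn1 was at 0.920 CPM, Actg2 at 6.59, Lmod1 at 1.53 and Des at 21.3, where SMCs had 397, 727, 265 and 178 CPM. Myocd, for the coactivator of smooth muscle genes, was at 2.91 CPM in SEMFs and 394 CPM in SMCs.

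The matrix genes differed by type of matrix. Of 18 basement membrane genes compared, 6 were at least 2-fold higher in SEMFs and 3 lower, and 8 of the 18 had their highest level of the 6 types in SEMFs, as did 34.6% of all 12034 genes compared. The collagen IV chains of all tissues, Col4a1 and Col4a2, were level with CD81- FBs, at 703 against 744 CPM and 335 against 365 CPM. Col4a5 and Col4a6, the chains that form a separate collagen IV network in smooth muscle and epithelium, were at 588 and 220 CPM in SEMFs, 83.8 and 16.9 in trophocytes and 6.35 and 2.93 in CD81- FBs. Their log2 ratios over the other fibroblasts were 3.90 (3.81 to 3.99) and 4.63 (4.45 to 4.81). Col4a3 and Col4a4, the partners of Col4a5 in kidney, were at 8.59 and 6.90 CPM. Among laminins, Lama4 was at 1192 CPM against 263 in CD81- FBs and Lamb1 at 760 against 374, while Lama2 was near level (2375 against 2275). Of 13 fibrillar and beaded collagen genes 2 were at least 2-fold higher, Col12a1 at 823 CPM against 150 in CD81- FBs and Col6a1 at 1956 against 1028. Col1a1 (1431 CPM), Col3a1 (1193) and Col14a1 (67.3) were the 3 that were lower, where trophocytes had 5149, 6404 and 2067 CPM.

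Col4a5 and Col4a6 lie head to head on chromosome X with 1274 bases between them in GRCm38.p6, Col4a6 from 141165403 to 141474095 on the minus strand and Col4a5 from 141475370 to 141689236 on the plus strand. Bases of the RefSeq promoter windows that lie outside both genes' annotated spans, 201 before Col4a5 and 231 before Col4a6, are shown because the pair shares its order of types, SEMFs, trophocytes and then the rest. Capitals again mark CG dinucleotides, 6 before Col4a5 and 1 before Col4a6, with medians of 4 and 5 over all windows cut to the same lengths.
Col4a5, chrX:141475169-141475369, plus strand: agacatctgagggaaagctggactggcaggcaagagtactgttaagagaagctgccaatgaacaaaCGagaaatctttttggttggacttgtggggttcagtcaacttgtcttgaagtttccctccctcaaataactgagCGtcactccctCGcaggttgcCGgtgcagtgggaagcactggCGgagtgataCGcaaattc
Col4a6, chrX:141474096-141474326, minus strand: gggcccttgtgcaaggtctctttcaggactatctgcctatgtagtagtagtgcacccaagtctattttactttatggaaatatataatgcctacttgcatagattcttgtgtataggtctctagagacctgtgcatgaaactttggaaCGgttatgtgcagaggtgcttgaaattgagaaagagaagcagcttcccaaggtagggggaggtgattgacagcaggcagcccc
The AACAAT motif was in neither stretch on either strand, and it was in 7.99% and 9.0% of all windows cut to these lengths.

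Transcription factor genes gave 7 of 23 compared at least 2-fold higher in SEMFs and 8 lower. Besides Sox6, Tcf4, for an E protein, was at 3247 CPM against 705 in CD81- FBs and 364 in trophocytes, and Zeb1 was at 876 against 233 and 404. Its paralogue Zeb2 went the other way, at 182 CPM against 1629 in CD81- FBs and 1255 in trophocytes. Runx1 and Runx2 were both higher, at 142 and 137 CPM against at most 96.6 and 78.2 in any other type. Osr1 and Prrx1, known from deeper fibroblasts, were at 7.36 and 0.153 CPM, with 87.3 and 7.25 CPM in trophocytes. SEMFs also had retinoid genes: Aldh1a1, for an enzyme that makes retinoic acid, was at 1117 CPM against 249 in trophocytes and 182 in CD81- FBs, and Rdh10, for the step before it, at 316 against 21.8 and 184. Of 8 retinoid genes compared 3 were at least 2-fold higher and 2 lower.

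Of 13 complement genes 7 were at least 2-fold lower and 2 higher, C7 and Masp1. C3 was at 36.6 CPM in SEMFs against 953 in CD81- FBs and 2541 in trophocytes, C4b at 44.3 against 851 and 1038, and the regulator Cd55 at 18.9 CPM against 538 in CD81- FBs. Of 15 chemokine genes 8 were lower and 4 higher. Ccl7 was at 149 CPM against at most 15.4 in any other type, and Cxcl14 at 199.8 against 96.7 in CD81- FBs. Cxcl12 was shared by all fibroblasts, at 1086 CPM in SEMFs and 631 to 828 in the others. By the score of the ranking, C3, Grem1, Fbln1, Piezo2, Lsamp, Prss23, Col8a1, Mfap5 and Nlgn1 were 9 of the 10 genes lowest in SEMFs against the other fibroblasts. Piezo2, for a mechanosensitive channel, was at 3.99 CPM against 852 in trophocytes. Much of what was left of C3, Fbln1 and Grem1 came from the 36 cells of sub-cluster 5, described with the other sub-clusters, without which the levels were 13.3, 14.6 and 4.10 CPM. Without those cells 1121 genes were at least 2-fold higher and 1227 at least 2-fold lower than in the other fibroblasts.

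Immediate-early and heat shock genes were low in SEMFs. All 17 were lowest in SEMFs of the 6 types compared, as were 8.75% of all 12034 genes, and 14 of the 17 were at least 2-fold lower than in the other fibroblasts, with a median log2 ratio of -2.23. Fos, for a subunit of the AP-1 factor, was at 346 CPM in SEMFs, 1230 in CD81- FBs, 4334 in trophocytes, 2591 in SMCs, 2035 in LECs and 5991 in BECs. Atf3 was at 20.7 CPM against 200.5 to 2237 in the other types, and the heat shock gene Hspa1a at 318 against 858 to 2278. For Egr2 the counts were low, with 4.75 CPM in SEMFs and 4.99 in SMCs, and their intervals overlapped. All these cells went through the same digestion, sort and library, and such genes are known to respond to dissociation. The part of dissociation in the differences between the types was not tested. The genes of the interferon response and antigen presentation were near level: none of 13 was 2-fold higher or lower, with a median log2 ratio of 0.0078.

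**Figure D3:**
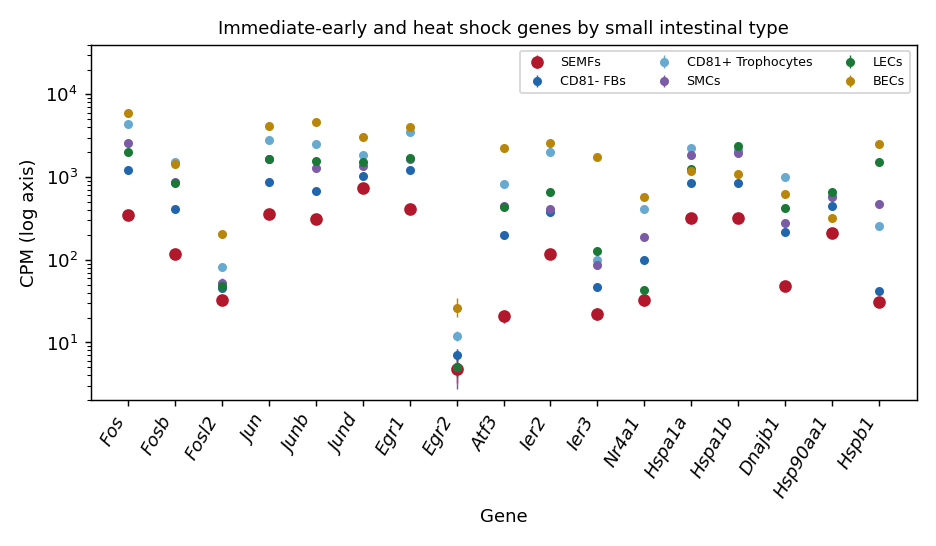
Levels of 17 immediate-early and heat shock genes in the 6 small intestinal types, in CPM on a log axis, with 1 point per type and bars for exact 95% Poisson intervals, most of which are smaller than the points. The red SEMF point is the lowest for every gene, although for Egr2 its interval overlaps others, with Fos at 346 CPM against 1230 CPM or more in the other types.

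Variation among the SEMFs was measured as the squared coefficient of variation beyond what counting at each cell's own depth gives, called CV2 here. Over 7286 genes detected in at least 10% of SEMFs, leaving out immunoglobulin, haemoglobin, Y-linked, mitochondrial and ribosomal protein genes and Xist and Tsix, its median was 0.263, and 785 genes reached 1. The core markers were even: Pdgfra had a CV2 of 0.11, Bmp5 0.19, Abcc9 0.20, Ednra 0.24 and Sox6 0.25. Ccl11 (1.15), C7 (1.23), Ednrb (1.34), Kcnq5 (1.61), Rbp4 (3.04) and Fos (3.60) varied more. Igfbp5, for an IGF binding protein, had a CV2 of 10.1, and 81.0% of its 8026 UMIs lay in the 111 cells with the most of it. Nrg1, for neuregulin 1, had 9.81 and 87.5%. Igkc, outside this ranking as an immunoglobulin gene, had a CV2 of 378, with 1331 of its 2325 UMIs in 1 cell. The 15 highest of the ranking were Fbln1, Mtmr4, Fmo2, Gsn, Igfbp5, Nrg1, Ptgs2, Mef2c, Unc13c, Tnfaip6, Cntnap5a, Isg15, Dnajb1, Il33 and Eln. Without the cells of sub-cluster 5, only 8 of the 15 were still among the highest, Igfbp5, Mef2c, Nrg1, Tnfaip6 and Isg15 leading, while Fbln1, Fmo2, Gsn and Eln dropped out.

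The 1109 cells were then clustered without any of the list genes, so that the lists could be compared between the clusters. This gave 5 sub-clusters of 398, 309, 264, 102 and 36 cells. Sox6 lay between 2335 and 3999 CPM in all of them and Pdgfra between 1619 and 3111 CPM. The differences between sub-clusters were not uniform: of the 226 list genes with enough UMIs, 15 were at least 2-fold higher and 36 at least 2-fold lower in sub-cluster 4, where the background over all 8113 genes was 1.6% and 3.35%. For sub-clusters 1, 2, 3 and 5 the counts were 1 higher and 14 lower (background 0.259% and 0.752%), 6 and 32 (0.592% and 1.53%), 6 and 15 (0.345% and 3.76%), and 37 and 16 (2.85% and 5.29%). No sub-cluster was named as a cell type.

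Sub-cluster 4, 9.20% of the SEMFs (7.56 to 11.1), was defined by Postn, which encodes the matrix protein periostin, with Rgs6, Ccdc3, Cdh13 and Ncam1. Among list genes Ednrb was at 2161 CPM against 511 in the other sub-clusters, a log2 ratio of 2.08 (1.99 to 2.17), Nrg1 at 322 against 39.3 (3.04, 2.76 to 3.31) and Rbp4 at 1570 against 307 (2.36, 2.24 to 2.47). All 34 UMIs of Fst, for the activin antagonist follistatin, lay in these cells, at 54.5 CPM. Col6a4 was at 133 CPM against 2.37, the channel gene Kcnk3 at 83.4 against 5.25, Foxl1 at 48.1 against 10.7 and Wnt4 at 223 against 102. Adamdec1, for a metalloprotease, was at 4715 CPM against 2047, but Fbln1 was at 9.63 against 73.1. On the low side Igfbp5 was at 9.63 CPM against 1359, C7 at 141 against 1128, Wif1 at 4.81 against 63.4, Chrd at 70.6 against 148 and Kcnq5 at 181 against 516. The cells of this sub-cluster had a median of 6139.5 UMIs, 2 of the 102 were among the cells with the highest doublet scores, and none was called a doublet.

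Whether these cells form a cluster of their own depended on the resolution. At a coarser resolution of 0.3 only 42 of the 102 stayed together, and 58 joined a cluster of 534 cells, of which 390 came from sub-cluster 1. In that cluster of 534 cells the log2 ratios against the other SEMFs had the opposite sign. They were -0.64 for Ednrb, -1.46 for Nrg1, -0.10 for Rbp4, 0.61 for C7 and 0.66 for Igfbp5. The cluster with the 42 cells was not measured. At resolution 1.0 all 102 cells stayed in 1 cluster, and with 30 components 84 did, the fewest of the other settings. In those clusters the same genes kept the directions of sub-cluster 4. As a split by a gene that defined sub-cluster 4, chosen after the data were seen, the 56 SEMFs with a Postn UMI were set against the 1053 without. Ednrb was at 2028 against 577 CPM, Nrg1 at 352 against 47.0, Rbp4 at 761 against 405, C7 at 455 against 1073 and Igfbp5 at 742 against 1264, the same directions as in the sub-cluster. Of those 56 cells 34 were in sub-cluster 4, so the shared directions are no independent check of it.

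The 3 large sub-clusters differed in fewer list genes. Sub-cluster 2, defined by Adarb2, Col23a1, Tmem132d, Opcml and Angptl1, had the most Ccl11, at 2585 CPM against 1125 in the others, with Lrat and Aldh1a3, 2 genes of retinoid metabolism, at 259 and 159 CPM against 82.2 and 60.2. It was low in 11 of 16 immediate-early genes compared, with Fos at 124 CPM against 425. The 2 cells with most of the Igkc UMIs also lay there. Sub-cluster 3, defined by Atf5, Mt1, H2-Q7, Ifi27 and Phlda3, was the shallowest, with a median of 4057.5 UMIs per cell. It had Igfbp5 at 2137 CPM against 1043, Ccl7 at 259 against 126, and the interferon-induced genes Isg15, Ifit3 and Ifit1 at 80.6, 152 and 67.2 CPM against 24.2, 54.7 and 32.7. Sub-cluster 1, defined by Brinp3, Ebf1, Lhfpl3, Thsd7b and Tafa2, was the largest, with a median of 6453 UMIs per cell, and C7 was highest there. Its 14 lower list genes included Nrg1, Aldh1a3 and Lrat, at 27.3, 12.5 and 51.5 CPM.

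Sub-cluster 5 held 36 cells with a median of 11534.5 UMIs, more than in any other sub-cluster, and was defined by Adamts19, Prr16, Hsd11b1, Sntg1 and Gsn. In its cells 5 of the 7 CD81- FB markers compared were at least 2-fold higher than in the other SEMFs, and the list summed to 8652 CPM, against 1975 to 6497 CPM in sub-clusters 1 to 4, with 13186 CPM in CD81- FBs and 8674 in trophocytes. Of the 8 markers on that list 5 were highest in trophocytes. Of 4 trophocyte markers compared 3 were at least 2-fold higher in sub-cluster 5, and all 9 on that list summed to 1393 CPM there against 361 to 1130 in the other sub-clusters. Sfrp1 was at 890 CPM against 11.6 in the other SEMFs, Fbln1 at 819 against 14.6 and C4b at 485 against 13.6, while Pdgfra was at 1619 CPM. The doublet caller marked 26 of the 36, and 35 were among the cells with the highest doublet scores. The part of doublets in these values was not tested.

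**Figure D4:**
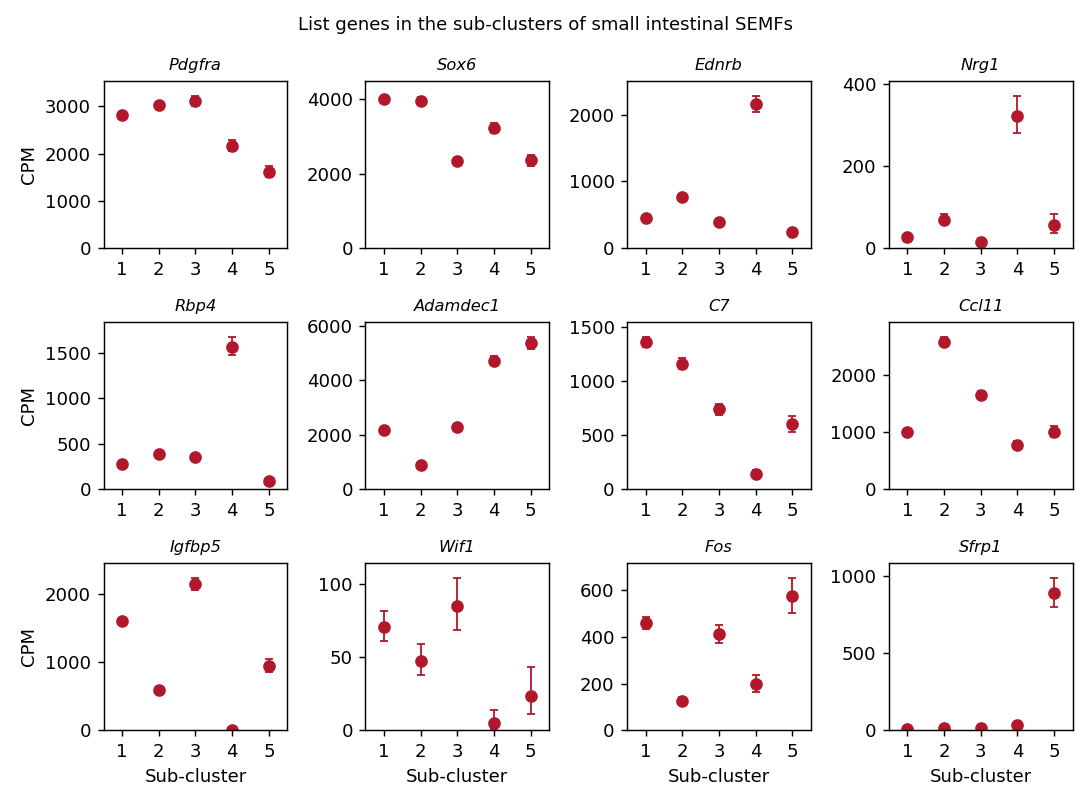
Levels of 12 list genes, none of which was used in the clustering, in sub-clusters 1 to 5 of the SEMFs (398, 309, 264, 102 and 36 cells), in CPM with exact 95% Poisson intervals. Ednrb, Nrg1 and Rbp4 are highest in sub-cluster 4, where Igfbp5 is at 9.63 CPM, and Sfrp1 is at 890 CPM in sub-cluster 5.

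The colon library held 1105 cells with the same label, with 7436577 UMIs and a median of 6345 UMIs per cell, so that the same cell type could be set side by side in both tissues. Tissue, animal, library and digestion time (45 minutes for small intestine and 60 minutes for colon) cannot be told apart here. Of 10001 genes compared, 1510 (15.1%) were at least 2-fold higher in small intestinal SEMFs and 536 (5.36%) at least 2-fold lower, with a median log2 ratio of 0.33. Leaving the 20 genes with the most UMIs out of the totals gave 1096 and 642, a more even split. The largest difference in the totals was Gm42418, a gene that overlaps ribosomal RNA sequence, at 77002 CPM in the colon cells and 1347 CPM in the small intestinal cells. Log2 ratios relative to the median gene are therefore given as well.

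Several of the genes that set SEMFs apart were at like levels in both tissues. Bmp5 was at 1539 CPM in the small intestine and 1215 in the colon, Bmp3 at 255 and 225, Bmp7 at 307 and 189, Tmem158 at 892 and 959, and Col4a5 at 588 and 665. Pdgfra and Sox6 were higher in the small intestine, at 2778 against 1137 and 3519 against 1462 CPM, with log2 ratios of 1.29 and 1.27, which are 0.96 and 0.93 against the median gene. The ranking against colon was led by 2 of the supplied markers, C7 at 1033 CPM in the small intestine and 1.34 in the colon, and Ccl11 at 1510 and 17.5 CPM. Both subunits of the potassium channel were higher in the small intestine: Abcc9 at 585 against 60.4 CPM, with a log2 ratio of 3.28 (3.14 to 3.42) that is 2.94 once the median gene is set to 0, and Kcnj8 at 392 against 53.7 CPM, with 2.87 (2.72 to 3.03) and 2.54. Other potassium channel genes were higher too, Kcnk2 at 583 against 27.0 CPM and Kcnab1 at 218 against 3.63 CPM. Among the genes named by the ranking, Angptl1 (274 against 3.09 CPM), Smoc2 (448 against 23.3), Col23a1 (266 against 10.8), C1qtnf7 (158 against 1.61) and Brinp3 (138 against 0.134) were also higher in the small intestine. Brinp3 rests on 1 colon UMI.

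By the score of the ranking, Gm42418, Cmss1, Cdk8, Lars2 and AY036118 led the genes higher in colon SEMFs. Cmss1 was at 9356 CPM against 210 in the small intestine, Cdk8 at 5792 against 165, Lars2 at 1623 against 69.1 and AY036118 at 3046 against 140. Pitx1, Postn, Fgl2, Hspb1 and Camk1d followed. Pitx1, for a homeobox factor, was at 205 CPM in the colon against 0.920, and Postn was at 779 against 31.6 CPM. The log2 ratio of Postn was -4.63 (-4.83 to -4.42), which is -4.96 once the median gene is set to 0. Nrg1 was at 305 CPM in the colon and 66.4 in the small intestine, Foxl1 at 66.3 and 14.3, Rbp4 at 1153 and 428, and Wnt5a at 421 and 209. Sub-cluster 4 of the small intestine lay between the tissues for some of these genes and not for others. Its Postn level was 265 CPM, its Nrg1 level of 322 CPM was near that of colon SEMFs, its Foxl1 level was 48.1 CPM, and its C7 level of 141 CPM stood between 1033 CPM in all small intestinal SEMFs and 1.34 CPM in the colon. Ednrb, at 2161 CPM, was above both tissues (669 and 225 CPM). In the colon 323 SEMFs had UMIs of Y-linked genes but none of Xist, and 520 had Xist alone, so the label held cells of both sexes. Between those colon cells Postn was at 840 and 739 CPM, Abcc9 at 69.1 and 51.4, and Kcnk2 at 25.7 and 26.4. Against only the 323 colon cells without Xist, and so from fewer colon UMIs, 1424 genes were at least 2-fold higher in the small intestine and 369 lower. The part of sex in the differences between the tissues was not tested.

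**Figure D5:**
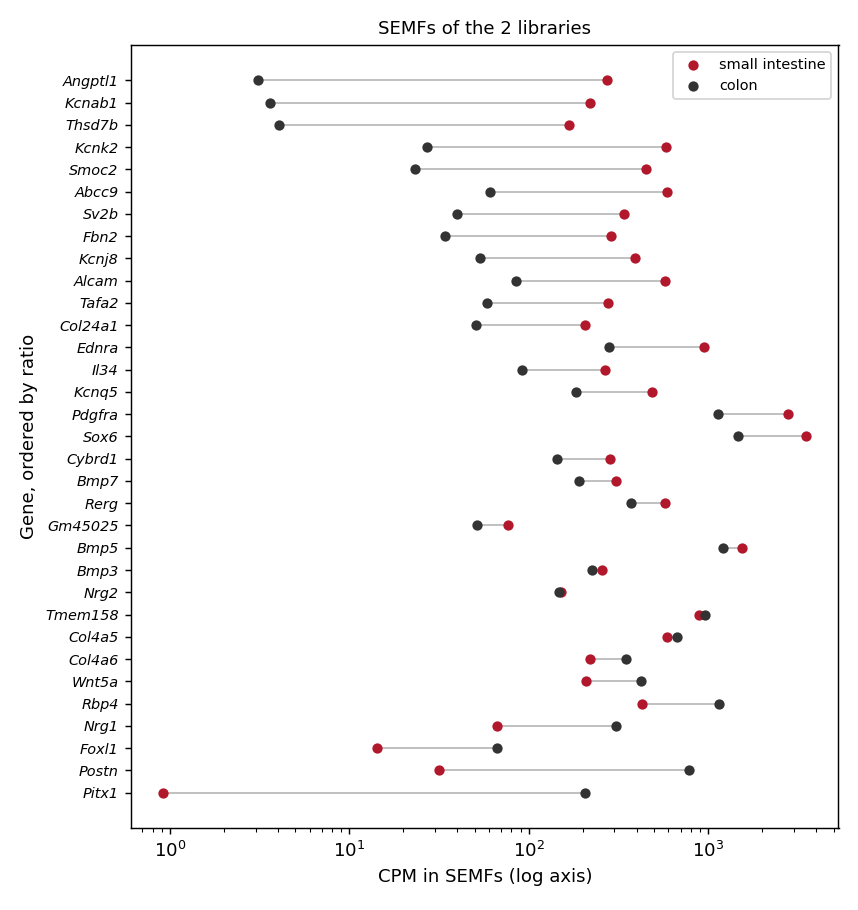
Levels in SEMFs of the small intestine (red) and colon (black), in CPM on a log axis, for genes named in the text, ordered by their ratio. Angptl1, Kcnab1 and Abcc9 are higher in the small intestine, Bmp3, Nrg2 and Tmem158 lie close together, and Pitx1 and Postn are higher in the colon.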

How the data were processed

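Droplet single-cell RNA-seq (10x 3' chemistry) was made from 1 small intestinal and 1 colon library. The authors deposited raw UMI counts per gene and cell, a natural log table and a table of cell labels. The natural log values were deposited as the log of 1 plus UMIs per 10000 UMIs of the cell, and they differed from values recomputed from the counts by at most 2.4e-07. Cell Ranger 7.1.0, Seurat 4 and the build mm10 are named in the submitters' processing notes, without their roles. Filters on cells and genes, and the method behind the labels, are not given in the sources used here.

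UMIs were summed per label and expressed per 1000000 UMIs (CPM), with exact Poisson 95% intervals, exact conditional binomial intervals for ratios and Clopper-Pearson intervals for shares. Genes with at least 100 UMIs in both groups together were compared, and a 2-fold ratio was the threshold. A level of 0 was set against a floor of 3 UMIs. Intervals and floors cover counting error only, and with 1 library per tissue no test across samples was possible. The squared coefficient of variation was computed beyond counting. Sub-clusters came from Leiden clustering in scanpy 1.11.5 (1500 variable genes, 20 components, 15 neighbours, resolution 0.5), without the 436 list genes. Doublets were scored with Scrublet, which called 29 SEMFs, and none was removed from the main values. The comparison scripts were tested on simulated data. Promoter windows came from the RefSeq table of GRCm38.p6, and bases inside a gene's annotated span were left out.

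Named genes were the supplied markers, list members, the 20 highest and 10 lowest by log2 of CPM plus 10, the 15 most variable, the 5 defining each sub-cluster, and the 10 highest and 10 lowest against colon, leaving out immunoglobulin, haemoglobin, Y-linked, mitochondrial and ribosomal protein genes and Xist and Tsix. Of the 10 lowest against the other fibroblasts, 1 is not reported here. The members and lists were chosen with earlier results of these data known. Alternatives changed the totals, filters, cells, weighting, clustering and thinning.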

Additional observations from a re-analysis of the deposited data

How the results depend on the processing

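No paired analysis was possible because each tissue has 1 library. The 17 main values were recomputed 112 times in all under the alternatives, of which 89 stayed within their limits and 23 moved, and the cause was not tested except where the filter itself sets the number of genes. Means of the deposited natural log values gave 113 genes higher and 137 lower than the other fibroblasts, 52 higher and 5 lower than each type, 30 list genes higher and 34 lower, and 84 higher and 75 lower than colon. With at least 30 UMIs 148 genes were lower than in each type and 920 lower than in colon. With at least 300 UMIs these were 47 and 300, and 956 were higher than in colon. A pseudocount of 1 CPM kept 11 of the 20 top genes. Of the 15 most variable genes 5 were shared in the deeper cells, 6 without the cells of highest doublet score and 8 without sub-cluster 5, the last chosen after seeing the data. Resolution 0.3 put 58 of the 102 cells of sub-cluster 4 in a cluster of 534 cells, 390 of them from sub-cluster 1. Another 42 of the 102 fell in a cluster that was not measured. In the cluster of 534 cells the log2 ratios were reversed for Ednrb (-0.64), C7 (0.61), Nrg1 (-1.46), Igfbp5 (0.66) and Rbp4 (-0.10). Resolution 1.0 gave 10 sub-clusters. All 6 markers were found in 25.8% of cells at 2000 UMIs and 46.4% at 5000, and at least 4 in 87.6% and 97.2%. List medians changed sign for immune markers (-0.15 without the cells of highest doublet score) and for WNT ligands (0.085 with at least 300 UMIs and 0.025 in the deeper cells), while 347 of the other recomputed medians stayed and 78 moved. Genes near the 100 UMI limit and levels of a few CPM are limited by depth.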
